A study of Mus musculus with 4 samples.

Results

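Immediate-early response genes are the genes a cell transcribes first after a stimulus, before any new protein is needed, and their mRNAs usually last only a short time. The set described here holds 10 of them: Fos, Fosb, Jun, Junb, Jund, Egr1, Ier2, Atf3, Myc and Mcl1. They were measured in testes of hypogonadal (hpg) mice on 4 one-colour oligonucleotide arrays, each giving a signal intensity per probe set. The members were all probe sets whose single annotated gene symbol is one of these 10 names, which gave 15 of the 12422 probe sets that are not controls. All 10 genes had at least 1 probe set, and 4 of them had more than 1.

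The mice of every array are hpg mutants, which lack gonadotropin-releasing hormone and so make little testosterone of their own. By their labels, mice of both groups first received testosterone propionate (an injectable ester of testosterone), which was then stopped. The group titled T+T has 3 arrays, and for replicate 1 the label adds a second testosterone propionate treatment of 4 hours. The length of the first treatment is not given for replicate 1. For T+T replicates 2 and 3 the label stops at the withdrawal, with 2 weeks of first treatment, so these arrays stand in T+T by title only. The group titled T+O has 1 array, from mice treated for 2 weeks and then withdrawn. No label gives an age, a strain beyond hpg, the time between withdrawal and collection, or whether an array holds 1 animal or a pool, so the spread between T+T arrays may be technical. With 1 T+O array, the fit takes its spread from the T+T arrays.

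The protein products fall into a few roles. FOS, FOSB and the JUN proteins are basic leucine zipper factors that pair as AP-1 and bind DNA together, ATF3 is a stress-induced relative that can pair with JUN proteins, and EGR1 is a zinc finger factor. IER2 is a small nuclear protein induced by growth factors, MYC drives growth and ribosome production as a pair with MAX, and MCL1 is a short-lived member of the BCL2 family that protects cells from apoptosis. Serum, growth factors, cyclic AMP and stress switch these genes on through MAP kinases, the serum response factor SRF and CREB, often within an hour, and several are switched off again soon after.

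Promoter windows from RefSeq (mouse assembly GRCm38.p6, the 250 bases before the start site) were at hand for 7 of the 10 genes. Egr1, Ier2 and Myc had none. They were searched on both strands for the CArG box bound by SRF, the cyclic AMP element TGACGTCA, the AP-1 site TGACTCA, the GC box GGGCGG and the TATA box TATAAA. No full CArG box, TGACGTCA or TGACTCA was in these 7 windows, against 1.47%, 1.55% and 4.46% of the 32851 windows in the table. With shares this low, 7 windows cannot show whether the members lack such sites. Bases further upstream were not searched. GGGCGG was in 5 of the 7, against 32.7% of all windows, and TATAAA in 1, against 12.4%. The 5 windows with GGGCGG, Fosb and Mcl1 among them, held 58.4% to 68.8% G and C. The share over all windows is not matched for that, so no excess of GC boxes can be read from 7 windows. Hits can overlap, as in the Atf3 window, and such a match is a string of letters, not a shown binding site. The Fosb and Mcl1 windows overlap the annotated gene, over 73 and all 250 bases, so these 2 are not shown. Fos, Atf3 and Jund are shown because they span the range of the set: Fos, under the filter used for testing, with a TATA box, Atf3 with 5 GC boxes, and Jund, far above the filter, with none of the searched strings. Capitals mark the matches, 5′ to 3′ on the gene's own strand, where a GC box on the other strand reads CCGCCC.
Fos: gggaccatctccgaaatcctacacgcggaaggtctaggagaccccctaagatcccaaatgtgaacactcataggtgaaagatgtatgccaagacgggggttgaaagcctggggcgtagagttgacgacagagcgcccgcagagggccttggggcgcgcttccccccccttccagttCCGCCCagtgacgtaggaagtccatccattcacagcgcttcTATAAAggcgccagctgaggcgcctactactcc
Atf3: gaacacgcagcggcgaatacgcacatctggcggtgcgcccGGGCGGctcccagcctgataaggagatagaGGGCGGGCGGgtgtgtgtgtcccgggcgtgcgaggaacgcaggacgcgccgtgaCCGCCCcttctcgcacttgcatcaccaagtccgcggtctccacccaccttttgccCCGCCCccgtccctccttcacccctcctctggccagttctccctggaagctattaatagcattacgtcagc
Jund: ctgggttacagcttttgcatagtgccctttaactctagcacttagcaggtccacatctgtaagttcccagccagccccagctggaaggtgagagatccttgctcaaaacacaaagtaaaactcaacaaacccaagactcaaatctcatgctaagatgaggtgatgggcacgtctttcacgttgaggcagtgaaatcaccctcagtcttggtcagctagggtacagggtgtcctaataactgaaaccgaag
The Fos window is chr12:85473640-85473889 on the plus strand, the Atf3 window chr1:191183334-191183583 on the minus strand and the Jund window chr8:70697489-70697738 on the plus strand. In the Fos window TATAAA lies 33 to 28 bases before the start site and GGGCGG 74 to 69 bases before it. The G and C content was 58.4% for Fos, 65.2% for Atf3 and 47.6% for Jund.

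No member probe set passed the test of T+T against T+O across all probe sets, and Fos, Jun and Myc were too dim to be tested. Signals were scaled so that the 4 arrays had the same trimmed mean, and a probe set was tested when its mean exceeded 22.7, the 40th percentile of such means. Of the 15 member probe sets, 8 passed this filter, and they stand for 7 genes. The other 7 include all probe sets of Fos, Jun and Myc, and are given by value only. With limma and Benjamini-Hochberg adjustment over 7453 probe sets, 0 of the 8 member probe sets passed an adjusted p of 0.05, where 0.0268% of all probe sets tested did. At an unadjusted p under 0.05 the members again gave 0 of 8, against 7.80% of all. The lowest adjusted p among them was 0.738, for Mcl1.

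**Figure D1:**
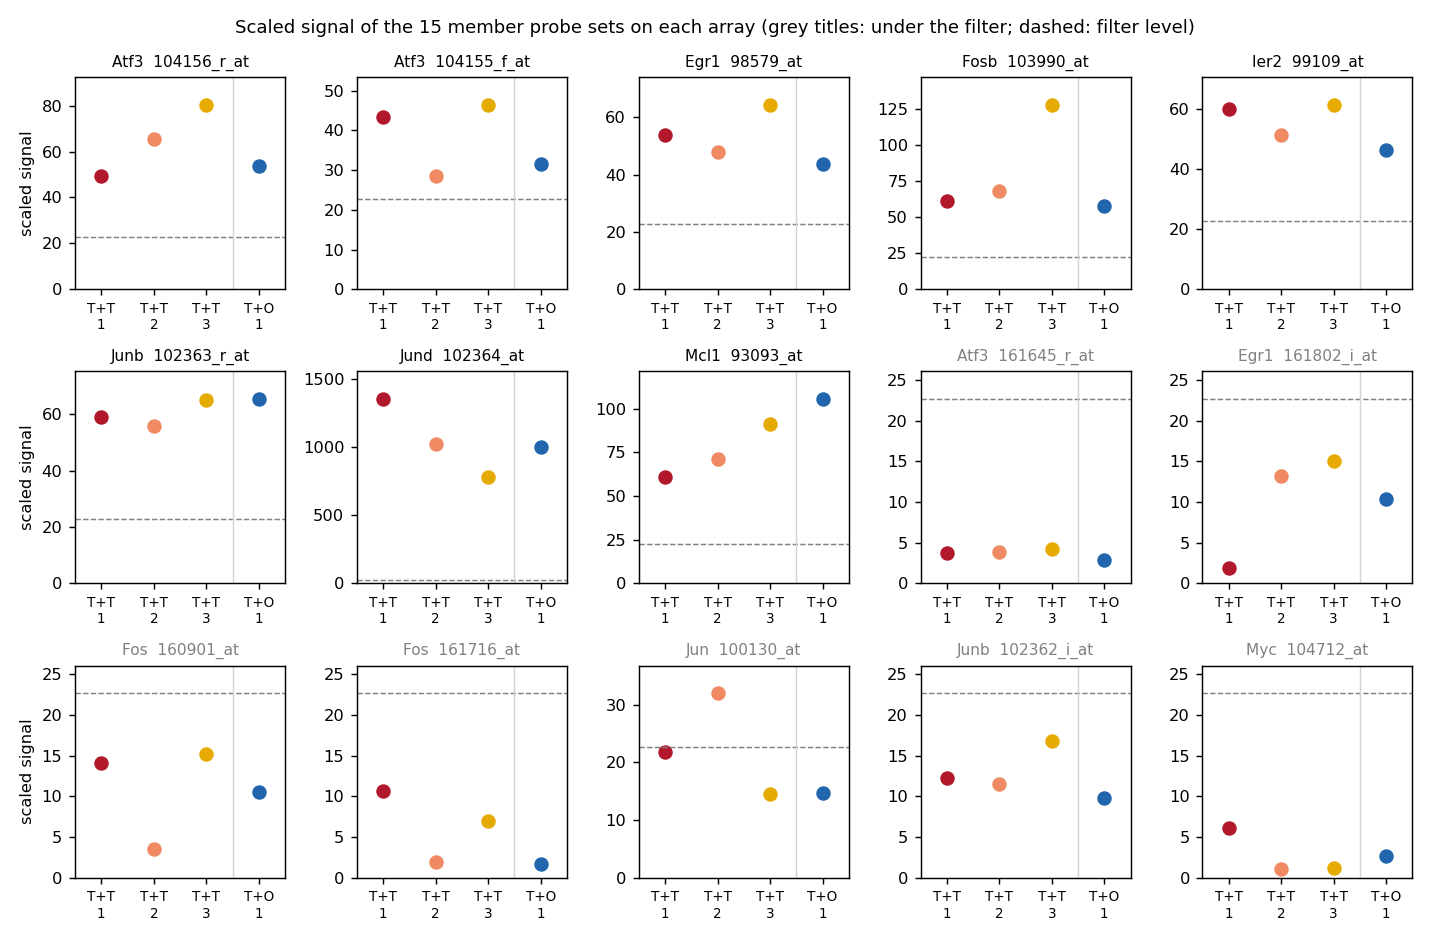
Scaled signal (vertical axis, linear, from 0) of each of the 15 member probe sets on T+T replicates 1, 2 and 3 and on the T+O array. Each point is 1 array, the dashed line is the filter level of 22.7, and grey titles mark the 7 probe sets whose mean lay under it. Fosb stands out on T+T replicate 3, at 128, and Mcl1 is the probe set with T+O highest by the widest margin.

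Among the Fos family, Fosb was measured above the filter and Fos was not. Fosb, which pairs with JUN proteins, had scaled signals of 60.8, 67.8 and 128 on T+T replicates 1, 2 and 3, against 57.6 on T+O. The T+T replicate 3 array is high, and the other two lie close above T+O. The mean in T+T was 85.5 ± 36.8 (SD, n = 3), and the difference T+T minus T+O on the log2(signal + 9.78) scale was 0.43, with a standard error of 0.38 and a 95% confidence interval of -0.45 to 1.31 (limma, adjusted p = 0.854). Without T+T replicate 3 that difference was 0.14. Fos itself had 14.1, 3.58 and 15.2 in T+T and 10.5 in T+O on its brighter probe set, 160901_at. T+O lies within the T+T values there. The second Fos probe set, 161716_at, had 10.7, 1.99 and 6.93 in T+T and 1.65 in T+O, all in a range where the probe sets were not tested.

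In the Jun family Jund was far above the filter, Junb lay above the filter on 1 of 2 probe sets, and Jun lay under it. Jund, which many resting tissues express steadily, had 1355, 1025 and 781 on T+T replicates 1, 2 and 3, against 1002 on T+O. T+O lies inside the T+T range, with replicate 1 above and replicate 3 below. The mean in T+T was 1053 ± 288 (SD, n = 3), the log2 difference 0.04 with a standard error of 0.28, and its 95% confidence interval -0.62 to 0.69 (limma, adjusted p = 0.990). The sign of the Jund difference turned on the values as deposited without scaling, at -0.17, and without T+T replicate 1, at -0.16.

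Junb, an early JUN protein that can restrain c-JUN, was read by 2 probe sets that point opposite ways. The brighter, 102363_r_at, had 58.9, 55.6 and 64.8 in T+T and 65.3 in T+O. T+O is the highest of the 4, but by a margin of under 1 signal unit over T+T replicate 3. The standard error of its log2 difference, -0.11, was 0.25 (limma, adjusted p = 0.959). The dimmer probe set, 102362_i_at, had 12.3, 11.5 and 16.8 in T+T and 9.79 in T+O, so here all T+T arrays lie above. The array maker's suffixes mark relaxed probe selection rules (_r) and a reduced number of probes (_i), and no direction is given for Junb. Jun, the founding AP-1 member, had 21.9, 32.0 and 14.5 in T+T and 14.6 in T+O. Only the T+T replicate 2 value is above the filter level, and the mean over arrays was below it.

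Atf3 was read by 3 probe sets, and neither of the 2 above the filter separated the groups. On 104156_r_at the signals were 49.2, 65.5 and 80.4 in T+T and 53.9 in T+O. On 104155_f_at, whose suffix marks a sequence family shared by several genes, they were 43.5, 28.4 and 46.4 in T+T and 31.6 in T+O. T+T replicate 3 is highest on both, while T+T replicate 1 lies below T+O on the first and above it on the second. T+T minus T+O on the log2 scale came to 0.21 ± 0.30 for the first (SE; limma, adjusted p = 0.926) and to 0.23 ± 0.34 for the second (SE; limma, adjusted p = 0.934). On 104156_r_at it was 0.067 without T+T replicate 3 and 0.37 without T+T replicate 1, and on 104155_f_at 0.12 without T+T replicate 3 and 0.40 without T+T replicate 2. The third, 161645_r_at, stayed at or below 4.29 on each array.

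For Egr1 and Ier2 all 3 T+T arrays lay a little above T+O. Egr1, a transcription factor that serum, gonadotropin-releasing hormone and many other signals induce, had 53.8, 47.9 and 64.4 in T+T and 43.8 in T+O. Its T+T mean was 55.4 ± 8.38 (SD, n = 3) and its log2 difference 0.27 with a 95% confidence interval of -0.36 to 0.91 (limma, adjusted p = 0.881), or 0.18 without T+T replicate 3 and 0.055 with T+T replicates 2 and 3 counted as withdrawn. A second, dimmer Egr1 probe set, 161802_i_at, had 1.96, 13.3 and 15.0 in T+T and 10.3 in T+O, so that T+O lies within T+T. Ier2 had 60.2, 51.3 and 61.5 in T+T and 46.6 in T+O. The Ier2 mean in T+T was 57.7 ± 5.51 (SD, n = 3) and the log2 difference 0.26, with a 95% confidence interval of -0.34 to 0.86 (limma, adjusted p = 0.881). For both genes the interval includes 0, and a difference of 1.5-fold in the T+T direction lies within it.

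Mcl1 was the member with the widest gap below T+O. It had 61.1, 71.5 and 91.2 on T+T replicates 1, 2 and 3 and 105.5 on T+O, so no T+T array reached the T+O signal. The T+T mean was 74.6 ± 15.3 (SD, n = 3). On the log2 scale T+T minus T+O came to -0.47, standard error 0.27, with a 95% confidence interval of -1.08 to 0.15 (limma, adjusted p = 0.738). Without T+T replicate 3 it was -0.60, with an adjusted p of 0.317 in limma, the lowest of any member under any alternative run. Myc had 6.10, 1.06 and 1.25 in T+T and 2.65 in T+O, all far below the filter, and T+T replicate 1 is the highest.

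**Figure D2:**
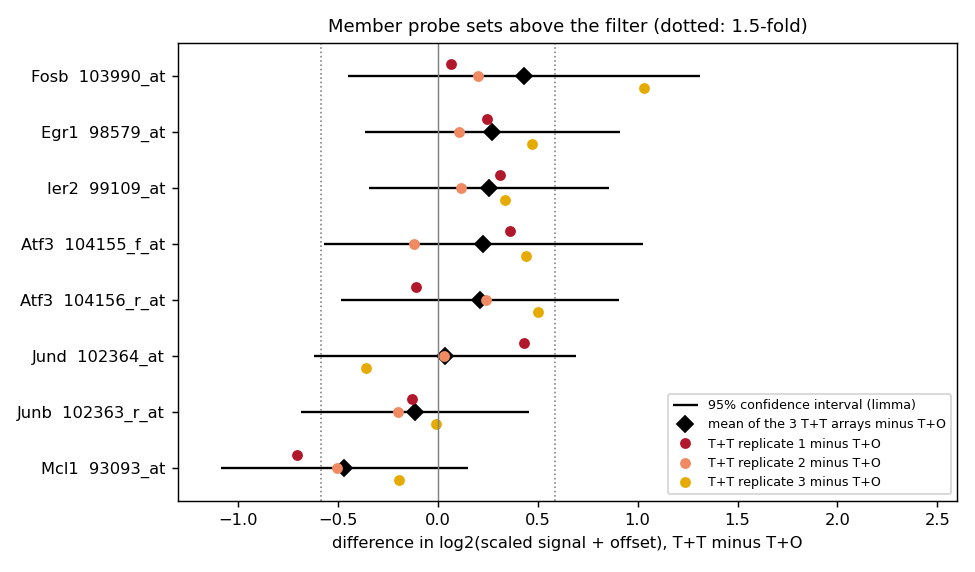
Differences T+T minus T+O in log2(scaled signal + 9.78) for the 8 member probe sets above the filter (horizontal axis). Black diamonds are the mean over 3 T+T arrays, black lines its 95% confidence interval from limma, coloured points the single T+T arrays, and dotted lines 1.5-fold in either direction; each interval crosses 0.

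Read array by array, the 8 member probe sets above the filter gave few differences of 1.5-fold, and all comparisons share the single T+O array. On T+T replicate 1, the array labelled with 4 hours of renewed treatment, 0 of 8 member probe sets were at least 1.5-fold higher than on T+O and 1 was at least 1.5-fold lower, namely Mcl1 at -0.70 on the log2 scale. Over all 7453 probe sets 6.87% were higher and 11.1% lower by that fold on this array. On T+T replicate 2 none of these 8 was that far from T+O, where 6.37% of all probe sets were higher and 9.38% lower. On T+T replicate 3 Fosb alone was higher, at 1.03, and no member was lower, where 7.90% of all were higher and 5.92% lower. No member was at least 1.5-fold to the same side on all 3 T+T arrays, against 1.84% of all probe sets higher and 2.23% lower. Some probe sets under the filter, not tested, were that far from T+O on single arrays on the log2(signal + 9.78) scale. At such low signals the offset makes fold changes come out too small, so plain signal ratios would add others. Myc on T+T replicate 1, with 6.10 against 2.65 on T+O, is at 0.35 on this scale. On T+T replicate 1 the probe sets that far apart on this scale were Fos on 161716_at at 0.84 and Egr1 on 161802_i_at at -0.78. On T+T replicate 2 they were Jun at 0.77 and Fos on 160901_at at -0.60.

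For the pair whose title and label match, T+T replicate 1 and T+O, there is no replicate check. The remaining log2 differences of T+T replicate 1 from T+O were 0.43 for Jund, 0.36 for Atf3 on 104155_f_at and -0.11 on 104156_r_at, 0.31 for Ier2, 0.25 for Egr1, 0.07 for Fosb and -0.13 for Junb on 102363_r_at. If T+T replicates 2 and 3 are taken as withdrawn arrays, since their labels end there, the comparison becomes T+T replicate 1 minus the mean of the other 3 arrays. Fosb was then at -0.34 and Atf3 on 104156_r_at at -0.36, both with the opposite sign to the grouping by title. Mcl1 was at -0.47 and Jund at 0.54 under that reading. No member passed (limma, lowest adjusted p = 0.919).

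Counting only the side of T+O, 3 of the 8 probe sets had all T+T arrays above it (Fosb, Egr1 and Ier2), 2 had all below it (Mcl1 and Junb on 102363_r_at), and 3 overlapped. Over all probe sets tested, 29.5% lay above on all 3 arrays and 23.7% below. The counts of 3 and 2 were the same after scaling to a common median or by quantiles, and were 0 and 0 on the values as deposited, which differ in level between arrays. They were 4 and 2 with any 1 T+T array left out, where fewer T+T arrays have to lie on one side. With T+T replicates 2 and 3 counted as withdrawn, T+T replicate 1 lay above the other 3 arrays for 1 probe set and below them for 2. The shares of 29.5% and 23.7% hold for the main setting only. They were not counted under the alternatives, so these changes in the member counts cannot be set against all probe sets. Over the 7 genes above the filter the median log2 difference was 0.21, and over all 10 genes 0.12, beside 0.02 for the 5677 genes above the filter. By array, T+T replicates 1, 2 and 3, the median of the 7 genes was 0.07, 0.11 and 0.34. That of all 10 genes was 0.24, 0.07 and 0.15, and that of the 5677 genes 0.03, 0.01 and 0.03. Without scaling the median over all 10 genes was -0.01, where the median of all probe sets tested moved to -0.16 from 0.03.

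T+T replicate 3 gave the highest of the 4 signals for 5 of the 8 member probe sets: Fosb, Egr1, Ier2 and both Atf3 probe sets. This count was made after the values were seen. Over all probe sets tested 29.3% were highest on that array. The count depends on the scaling: it was 3 of 8 after scaling to a common median, where 16.0% of all were highest there, 3 of 8 after quantile scaling, where 24.3% were, and 7 of 8 without scaling, where 74.3% were. T+T replicate 3 had the highest deposited level and so the smallest scaling factor, 0.779. The 5 macrophage markers, 4 of them above the filter and none at 0, summed to 204, 225 and 292 on T+T replicates 1, 2 and 3 and to 175 on T+O, highest on T+T replicate 3. The same array was highest for the 5 Leydig markers (351, 301 and 390.03 in T+T, 346 in T+O), the 5 measured Sertoli markers (2188, 2452 and 2487 in T+T, 2106 in T+O) and the 2 measured red blood cell markers (424, 421 and 439 in T+T, 412 in T+O). These are 4 of the 12 marker lists. The part of these cell types in the member values was not tested. In whole testis, fewer cells of a type and less RNA per cell cannot be told apart.

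The genes around the members were compared through 8 lists, holding 159 genes, of which 121 were on the arrays by name and 88 were above the filter. None of the 88 passed over all probe sets in limma. An unadjusted p under 0.05 in limma was found for 9 of the 88, against 7.80% of all probe sets tested. Their lowest adjusted p was 0.289, for Atf2. A gene is given by its brightest probe set, and the genes named are the extremes of each list, so their values are a description.

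Of 46 other immediate-early genes, 26 were above the filter, with 16 differences above 0 and 10 below and a median of 0.08 on the log2 scale. At the upper end, the matricellular protein gene Ccn2 had 129, 114 and 101 in T+T and 82.9 in T+O, and Irf1, an interferon-induced factor, had 54.7, 48.7 and 52.5 in T+T and 33.9 in T+O. All T+T arrays of both lie above T+O. At the lower end the clock gene Per1, which is also an early response gene, had 106, 85.4 and 97.0 in T+T and 175 in T+O, a log2 difference of -0.81 (limma, adjusted p = 0.350). With T+T replicates 2 and 3 counted as withdrawn the Per1 difference was -0.089. Nr4a1, an orphan nuclear receptor that cyclic AMP induces in Leydig cells, had 36.2, 55.9 and 70.4 in T+T and 70.4 in T+O.

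Among AP-1 and ATF/CREB relatives 8 of 18 genes were above the filter, with a median of 0.03. Atf2, a JUN partner activated by stress kinases, had 30.7, 49.9 and 45.0 in T+T and 110.7 in T+O, the widest gap of any listed gene at -1.24 ± 0.30 on the log2 scale (SE; limma, adjusted p = 0.289). Its T+T arrays all lie at least 1.5-fold below T+O. Atf5 was at -0.46, Fosl2 at 0.43 and Creb1 at 0.55, and none of these 3 passed (limma, lowest adjusted p = 0.803).

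The inputs to these genes had no common direction: 18 of 35 MAP kinase and SRF genes were above the filter, 8 with a difference above 0 and 10 below, with a median of -0.02. The JNK genes Mapk8 and Mapk9, whose products phosphorylate c-JUN, lay on opposite sides. Mapk8 had 53.3, 66.3 and 68.4 in T+T and 98.0 in T+O, and Mapk9 had 41.6, 45.4 and 47.8 in T+T and 33.6 in T+O. The SRF coactivator Mrtfa was at -0.77 and the kinase Araf at 0.84 on the log2 scale (limma, adjusted p = 0.571 and 0.715), and at 0.098 and 0.11 with T+T replicates 2 and 3 counted as withdrawn. Araf had 25.8, 41.8 and 22.2 in T+T and 12.0 in T+O. Its mean passed the filter level of 22.7 through the T+T arrays, and its T+O signal lies under that level. Feedback regulators (7 of 16 above the filter) had a median of 0.19, with the MAP kinase phosphatases Dusp6 at 0.49, Dusp1 at 0.24 and Dusp16 at -0.69 and the EGR corepressor Nab1 at -0.28. The T+O signal of Dusp6, 17.8, also lies under the filter level.

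For MYC, 8 of 11 network genes were above the filter. Mxd1, whose product competes with MYC for MAX, had 62.9, 79.6 and 58.0 in T+T and 29.9 in T+O, a log2 difference of 0.94 (limma, adjusted p = 0.427), which was 0.23 with T+T replicates 2 and 3 counted as withdrawn. It was the only gene of that list at least 1.5-fold to one side on all T+T arrays. Mnt, another MAX partner, was at -0.46, Max itself at -0.10 and the MYC relative Mycs at 0.13. Among MYC target genes 9 of 12 were above the filter, 7 with a difference above 0. The nucleolar genes Ncl and Npm1 were the other 2, with Ncl at 154, 295 and 370.3 in T+T and 537 in T+O and Npm1 at 401, 498 and 664 in T+T and 834 in T+O. Nme1 was at 0.53 and Fbl at 0.27.

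Relatives of MCL1 (9 of 16 above the filter) had a median of 0.09. The protective genes Bcl2 and Bcl2l1 were at 0.39 and -0.31, the pore former Bak1 at 0.39 and the BH3-only gene Bik at -0.45, none past the test (limma, lowest adjusted p = 0.745 in this list). Among factors that act on the AU-rich elements of short-lived mRNAs, 5 of 8 were above the filter, with a median of -0.13. Tial1 had 116, 125 and 172 in T+T and 241 in T+O, a log2 difference of -0.78 (limma, adjusted p = 0.474), while Elavl1 was at -0.05, Zfp36l1 at -0.20 and Zfp36l2 at 0.25.

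**Figure D3:**
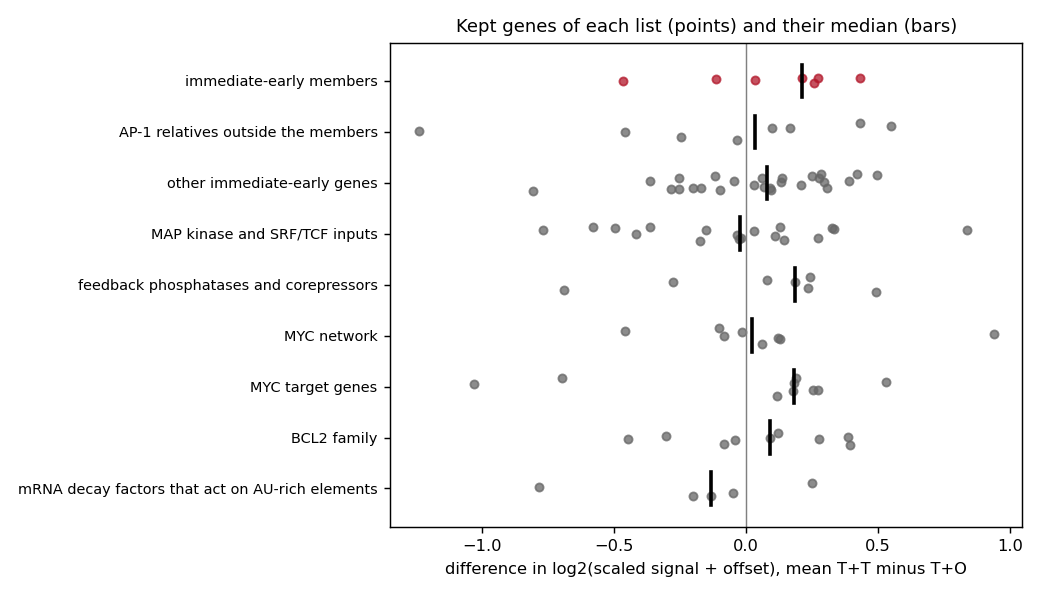
Difference T+T minus T+O in log2(scaled signal + 9.78) (horizontal axis) for each gene above the filter in the member set (red) and in 8 lists of related genes (grey); black bars are medians. The 7 member genes lie between -0.47 and 0.43, and Atf2 is the lowest point at -1.24.

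As a check of the tissue, the 6 spermatid markers were all above the filter and summed to between 23438 and 30012 in T+T and to 22848 in T+O. The 5 Leydig and 5 measured Sertoli markers were above it too, and 4 of the 5 meiotic germ cell markers. The 3 muscle markers, 2 of them above the filter, summed to 135, 69.3 and 125 in T+T and to 45.5 in T+O. The 3 measured adipose markers, 2 above the filter, went the other way, with 328, 242 and 272 in T+T and 350.02 in T+O. The part of other tissue in the member values was not tested. The ratio of 3′ to 5′ signal of the Gapdh control was 0.886, 0.837 and 0.809 in T+T and 1.20 in T+O, and that of pyruvate carboxylase was 1.93, 2.00 and 1.76 in T+T and 3.76 in T+O. For the transferrin receptor control it was 1.52, 3.39 and 3.12 in T+T and 9.50 in T+O. These 3 ratios set T+O apart from T+T. For Actb the ratio was 1.66, 1.40 and 1.17 in T+T and 1.53 in T+O, and for 18S RNA 2.22, 4.67 and 3.04 in T+T and 3.18 in T+O, so these 2 do not. Tested members and named list genes lay on both sides of T+O. T+O is the highest array for Mcl1, Junb on 102363_r_at, Atf2, Atf5, Per1, Mrtfa, Mapk8, Dusp16, Nab1, Mnt, Ncl, Npm1, Bcl2l1, Tial1 and Zfp36l1. It is the lowest for Fosb, Egr1, Ier2, Creb1, Ccn2, Irf1, Mapk9, Araf, Dusp6, Mxd1, Fbl, Nme1, Bcl2 and Bak1. The rest overlap. Over all probe sets tested, all 3 T+T arrays lay below T+O for 23.7% and above it for 29.5%. The part of RNA quality in these values was not tested.

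**Figure D4:**
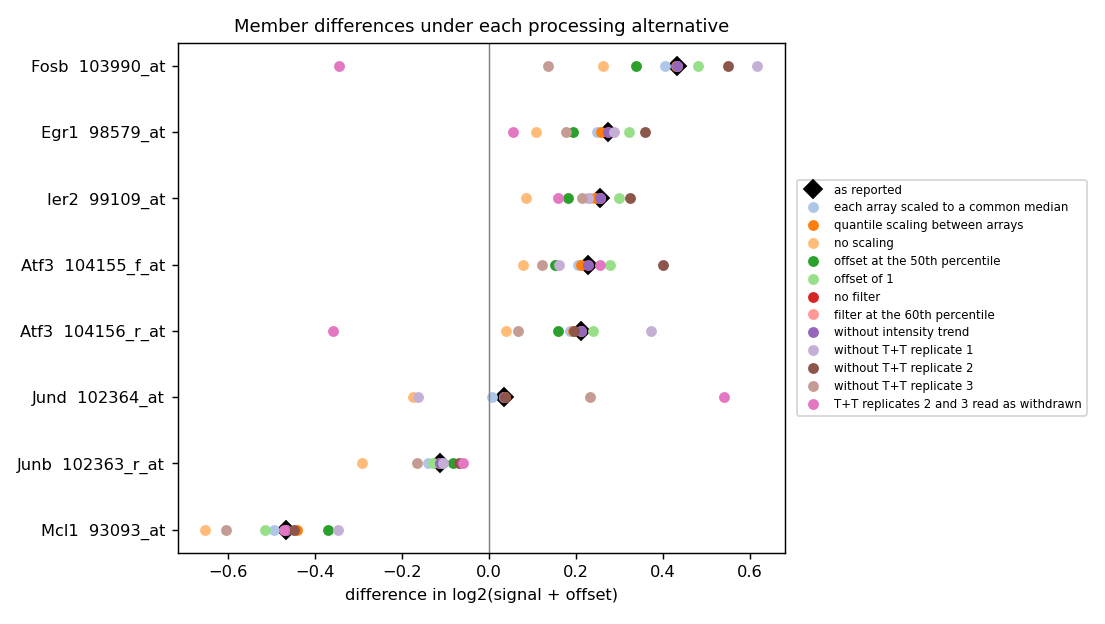
Difference in log2(signal + offset) (horizontal axis) of the 8 member probe sets above the filter, as reported (black diamonds) and under 12 processing alternatives (coloured points). The reported values run from -0.47 for Mcl1 to 0.43 for Fosb; Fosb, Jund and Atf3 on 104156_r_at have points on both sides of 0.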

How the data were processed

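The deposited values are linear signal intensities per probe set and array, as the values show; the software that made them, and the genome build, are not given in the sources used here. The 66 control probe sets were removed, and each deposited intensity was multiplied by a factor (1.15, 1.33 and 0.779 for T+T replicates 1, 2 and 3 and 0.915 for T+O) that gave all arrays the same mean after trimming 2% at each end. An offset of 9.78, the 25th percentile of scaled values, was added before log2 (fold changes at low signal come out too small). Probe sets with a mean above the 40th percentile were kept (7453 of 12422). No detection calls were used.

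Symbols came from the supplied platform annotation, updated by gene ID through RefSeq: 10817 of 10833 probe sets with 1 symbol matched, 396 had several symbols and 1193 are unnamed here. T+T minus T+O was tested with limma 3.58.1 in R 4.3.3 (lmFit, eBayes with intensity trend, two-sided, 2 residual and 5.73 prior degrees of freedom) and Benjamini-Hochberg adjustment over all kept probe sets. The replicate number of T+T replicate 3 only names it. Named genes were all member probe sets and, per list, the 2 highest and 2 lowest kept genes. The members and lists were chosen with earlier results of these data known. The alternatives were 3 other scalings, 2 offsets, 2 filters, no intensity trend, leaving out each T+T array, and counting T+T replicates 2 and 3 as withdrawn. The number of arrays limits the precision.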

Additional observations from a re-analysis of the deposited data

How the results depend on the processing

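No paired analysis was possible because T+O has a single array, whose number pairs it with nothing. No member passed the adjusted threshold or was 1.5-fold to one side on all T+T arrays under any of the 12 alternatives. Over all probe sets, the count of 2 past the threshold became 5 after median scaling, 5 without scaling, 6 with the offset at the 50th percentile, 0 after quantile scaling, 0 with no filter, 0 without the intensity trend and 0 when T+T replicates 2 and 3 counted as withdrawn; leaving out 1 T+T array gave 1 to 63. The count of 303 at least 1.5-fold apart became 195 without scaling, 155 with the offset at the 50th percentile, 532 with no filter and 167 with a filter at the 60th percentile, and 419 to 655 with 1 T+T array left out. The median of the 10 member genes, 0.12, became -0.0091 without scaling, and lay between 0.062 and 0.19 with 1 T+T array left out.

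Signs turned for 3 of the 8 tested member probe sets, 4 of the 7 under the filter (161802_i_at of Egr1, 160901_at of Fos, 102362_i_at of Junb and the Myc probe set, none of them tested) and 8 of the 32 listed genes named, the only listed genes rerun singly. When T+T replicates 2 and 3 counted as withdrawn they did so for Atf3 104156_r_at (-0.36), Fosb (-0.34), Mapk9 (-0.0064), Mrtfa (0.098), Nme1 (-0.022), Bcl2l1 (0.26) and Zfp36l1 (0.00014). Without scaling they did so for Jund (-0.17) and Mycs (-0.018). With 1 T+T array left out, Jund ran from -0.16 to 0.23, Max from -0.21 to 0.012 and Elavl1 from -0.14 to 0.036. The cause was not tested. Without turning the sign, counting replicates 2 and 3 as withdrawn also brought Atf5 to -0.0016 from -0.46 and Irf1 to 0.25 from 0.498. All of these differences are on the log2 scale and none of them passed the test. Without detection calls, Fos, Jun and Myc cannot be placed above or below background.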
